A study of Homo sapiens with 18 samples.

Results

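Osteoblast lineage genes were examined in U2OS, a human osteosarcoma line, that is, a line from a bone-forming tumour. The set was a list of 10 gene symbols (RUNX2, SP7, DLX5, MSX2, SOX9, ALPL, SPARC, SPP1, IBSP and BGLAP) looked up by symbol in the deposited table of estimated counts. Of the 10 symbols, 8 matched a row among the 25296 genes of the table, and SP7 and IBSP were not analysed here. The total RNA of 18 libraries had been sequenced, 3 biological replicates in each of 6 groups. All cells had been transduced with the retroviral vector MigR1, either empty (EV) or with DNMT3A, an enzyme that methylates DNA, in wild-type (WT) or mutant (MUT) form. The mutant is R882C in the series text but R882H in the sample labels, and is called mutant here. Each line was left untreated (a vehicle control in the series text) or received 10 µM cytarabine (Ara-C), a cytidine analogue that blocks DNA synthesis, for 24 h. The labels do not say whether a line was a clone or a pool, nor that replicates were separate cultures, so p-values measure the spread between these samples.

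Osteoblasts arise from mesenchymal progenitors that switch on the transcription factor RUNX2 and then SP7, with DLX5 and MSX2 as homeobox regulators on the same route. SOX9 directs the neighbouring cartilage route and is held in balance with RUNX2. Committed cells make the phosphatase ALPL, which frees phosphate for mineral, and the matrix protein SPARC, and later the mineral-binding proteins SPP1 (osteopontin), IBSP (bone sialoprotein) and BGLAP (osteocalcin). RUNX2 binds DNA at the core letters ACCACA and is a known activator of SPP1 and BGLAP.

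Promoter stretches of 4 genes are shown because they cover an early regulator, a later target, the gene that rose in each line under Ara-C and the gene that differed between lines in most comparisons. They come from RefSeq (GRCh38.p14) and are trimmed to end before both the RefSeq start and the gene's start in the deposited table. Capitals mark the letters ACCACA, searched on both strands (as TGTGGT on the other). Gene coordinates below are those of the deposited table (hg38).

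RUNX2, distal start, chr6:45328080-45328156, plus strand: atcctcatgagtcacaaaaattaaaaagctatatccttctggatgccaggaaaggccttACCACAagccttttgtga

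SPP1, chr4:87975464-87975649, plus strand: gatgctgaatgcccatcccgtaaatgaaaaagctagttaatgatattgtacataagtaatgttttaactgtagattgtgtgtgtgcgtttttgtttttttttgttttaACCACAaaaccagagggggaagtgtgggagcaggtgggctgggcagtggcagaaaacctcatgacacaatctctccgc

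MSX2, chr5:174724332-174724532, plus strand: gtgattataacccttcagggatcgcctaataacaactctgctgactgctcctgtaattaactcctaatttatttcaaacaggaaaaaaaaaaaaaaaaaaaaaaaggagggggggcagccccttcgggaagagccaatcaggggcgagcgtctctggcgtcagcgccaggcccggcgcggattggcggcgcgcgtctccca

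ALPL, chr1:21509173-21509371, plus strand: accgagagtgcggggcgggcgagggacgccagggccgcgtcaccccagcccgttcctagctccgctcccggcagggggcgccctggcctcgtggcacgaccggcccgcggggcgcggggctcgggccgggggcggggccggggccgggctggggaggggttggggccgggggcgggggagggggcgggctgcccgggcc

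In the full 250 bases before each RefSeq start, the RUNX2 distal window held 2 matches to ACCACA, starting 191 and 87 bases before the start, the SPP1 window held 1 at 142 bases and the BGLAP window held 1 at 163 bases. The windows of MSX2, SPARC, ALPL, IBSP and the RUNX2 proximal start held 0 matches. Of 35116 RefSeq promoter windows of this length, 10.98% (3855 windows) held at least 1 match and 0.971% at least 2, so matches also occur in many windows outside this set. The dinucleotide CG, the target of DNA methylation, was counted in the same full windows. It occurred 0 times in the RUNX2 distal window, 3 times in SPP1, 4 in IBSP, 7 in SPARC, 8 in BGLAP and 17 in MSX2. It occurred 34 times in the RUNX2 proximal window and in the ALPL window whose first 199 bases are shown. The other ALPL windows held 9 and 8, and the median over all windows was 11. A match is a description of letters, not of binding, and methylation was not measured in these files. SOX9, SP7 and DLX5 had no entry in the table of promoters.

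Library totals ran from 15.4 to 21.9 M estimated counts. CPM values below are counts relative to the library size after TMM scaling, and RPKM values are CPM per kilobase of exonic sequence (GENCODE 44). DNMT3A itself was at 26.2 to 27.5 CPM in untreated EV, 129 to 139 CPM in untreated WT, and 499.7, 615 and 254 CPM in the 3 untreated MUT libraries. It was at 45.5 to 49.6, 166 to 182 and 515 to 532 CPM in treated EV, WT and MUT. DNMT3A was thus higher in WT and MUT than in EV, and untreated MUT replicate 3 held less of it than the other untreated MUT libraries. These counts do not separate vector from endogenous transcripts, nor wild-type from mutant ones, so they do not check the WT and MUT labels. Mean DNMT3A was 456 CPM in untreated MUT and 133 CPM in untreated WT. Mutation and DNMT3A level therefore differ together between MUT and WT, and their separate parts were not tested.

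On the RPKM scale, the levels of the 8 genes ranged from abundant SPARC to late markers and DLX5 near the limit of detection. SPARC had a mean RPKM of 219.7 over the 18 libraries (range 173 to 253), above 99.3% of the 19417 genes with a length. SOX9, the cartilage regulator, came next at 38.5 RPKM (29.8 to 52.0), above 94.0% of genes. RUNX2 had a mean of 5.48 RPKM (3.62 to 6.49), MSX2 of 3.98 (2.33 to 5.41) and ALPL of 3.32 (2.10 to 5.04). These middle genes stood above 64.9%, 59.3% and 56.2% of genes, and neighbours in this order overlapped between libraries. BGLAP (0.165 RPKM, 0 to 0.453), SPP1 (0.101 RPKM, 0.0517 to 0.186) and DLX5 (0.0333 RPKM, 0 to 0.0736) were far lower, and each overlapped its neighbour. With the longest transcript as length, SPP1 (0.180 RPKM) passed BGLAP (0.171 RPKM), so the order of these 2 genes rests on the gene model. SOX9 and RUNX2 did not overlap in any library, nor did SPARC and SOX9, or ALPL and BGLAP.

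**Figure D1:**
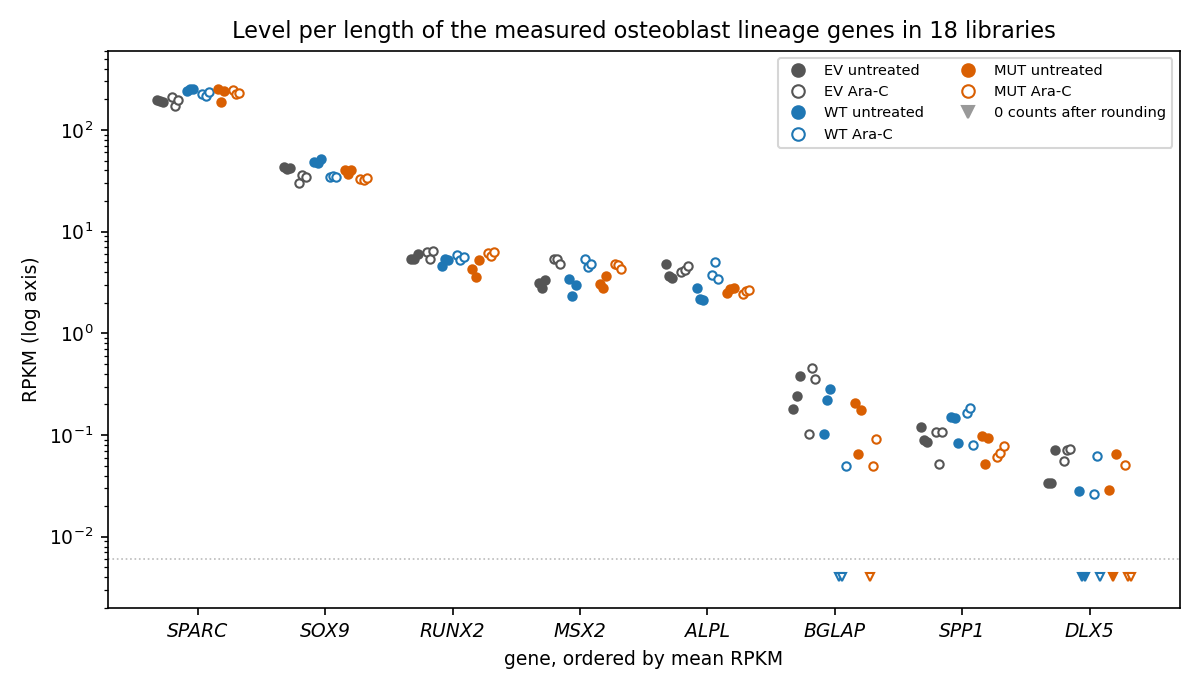
RPKM (log axis) of the 8 measured osteoblast lineage genes in each of 18 libraries, coloured by line, filled for untreated and open for Ara-C, with libraries at 0 counts after rounding drawn as triangles below the dotted line. SPARC lies at 173 to 253 RPKM and SOX9 at 29.8 to 52.0, while BGLAP, SPP1 and DLX5 stay at or below 0.453.

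RUNX2, SPARC and ALPL, markers of the labelled bone tumour origin, were thus measured in every library, as were MSX2 and the cartilage regulator SOX9. The late markers SPP1 and BGLAP were at or near 0 RPKM, and so was DLX5, a homeobox regulator of the route and not a late marker. DLX5 held at most 3 counts in any library, which is the floor used here. BGLAP held at most 7.77 estimated counts and SPP1 6 to 26 counts. Neither DLX5 nor BGLAP passed the filter on low counts, so 6 genes entered the tests. In bulk RNA, fewer cells that express a gene and less RNA per cell cannot be told apart.

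Ara-C moved the transcription factors of the set in opposite directions: MSX2 rose and SOX9 fell in each of the lines, and RUNX2 rose in MUT. MSX2 (chr5:174724533-174730894), a homeobox repressor and activator of osteogenic genes downstream of BMP signals, was at 7.01, 6.25 and 7.38 CPM in untreated EV and at 12.0, 12.0 and 10.7 CPM after Ara-C. In WT it was at 7.60, 5.19 and 6.71 CPM untreated and at 12.0, 9.94 and 10.7 CPM treated, and in MUT at 6.72, 6.23 and 8.11 CPM untreated and at 10.7, 10.5 and 9.59 CPM treated. Every treated library stood above every untreated library, with no overlap in any line. The fold rise was 1.68 in EV (log2 0.75, SE 0.14, adjusted p = 0.00019 by edgeR's quasi-likelihood test, adjusted after Benjamini and Hochberg over 18226 tested genes). It was 1.67 in WT (log2 0.74, SE 0.14, edgeR adjusted p = 0.00019) and 1.46 in MUT (log2 0.55, SE 0.14, edgeR adjusted p = 0.00244). These MSX2 calls held in all 25 alternative settings that keep the threshold at an adjusted p of 0.05. No line comparison of MSX2 was called, with 95% intervals of the log2 difference from -0.38 to 0.22 (WT against EV) and -0.27 to 0.33 (MUT against EV) when untreated.

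SOX9 (chr17:72121020-72126421), the factor that commits cells to cartilage, was at 168, 161 and 166 CPM in untreated EV and at 117, 141 and 136 CPM after Ara-C. It was at 191, 185 and 205 CPM in untreated WT and at 135, 139 and 136 CPM in treated WT. In MUT it was at 157, 144 and 159.7 CPM untreated and at 128, 125 and 133 CPM treated. Treated and untreated libraries did not overlap in any line, and the 3 untreated WT libraries were the highest of all 18. SOX9 fell by 0.33 on the log2 scale in EV (SE 0.07, edgeR adjusted p = 0.000688). It fell by 0.51 in WT (SE 0.07, edgeR adjusted p = 6.83e-06) and by 0.25 in MUT (SE 0.07, edgeR adjusted p = 0.00459), and all 3 calls held in the 25 settings. The treated lines stood close together: the log2 difference in SOX9 between treated WT and treated EV was 0.05 (95% interval -0.09 to 0.20) and between treated MUT and treated EV -0.03 (-0.18 to 0.11). Among untreated cells, SOX9 was lower in MUT than in WT (log2 difference -0.34, SE 0.07, edgeR adjusted p = 0.00187). It was higher in WT than in EV (log2 0.23, SE 0.07, edgeR adjusted p = 0.0357), a call that held in 15 of 25 settings and in 9 of the 18 that leave out a library. That call was lost with the authors' factors (adjusted p = 0.0576) and without any single untreated EV, untreated WT or treated WT library (adjusted p 0.0505 to 0.173).

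RUNX2 (chr6:45328157-45664350), the master regulator of the lineage, was at 44.5, 43.99 and 48.8 CPM in untreated EV and at 52.1, 44.1 and 53.2 CPM after Ara-C. It was at 38.0, 44.3 and 43.4 CPM in untreated WT and at 48.5, 43.0 and 46.3 CPM in treated WT. In MUT it was at 35.0, 29.6 and 43.2 CPM untreated and at 50.5, 47.6 and 51.4 CPM treated. Treated and untreated libraries overlapped in EV and WT and stood apart in MUT, where the untreated replicates were also the most scattered. RUNX2 rose 1.38-fold in MUT (log2 0.47, SE 0.11, edgeR adjusted p = 0.000986), also in all 25 settings. The log2 difference was 0.12 in EV (edgeR adjusted p = 0.357) and 0.13 in WT (edgeR adjusted p = 0.317). The test of the difference between the Ara-C effects did not call MUT against EV (log2 0.35, 95% interval 0.03 to 0.66 before adjustment, edgeR adjusted p = 0.275) or MUT against WT (log2 0.34, 0.02 to 0.65, edgeR adjusted p = 0.288).

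The same untreated MUT libraries enter the comparison of untreated lines, where RUNX2 was lower in MUT than in EV (log2 difference -0.35, SE 0.11, edgeR adjusted p = 0.0299). That call held in 17 of 25 settings. It was lost without any single untreated EV library, without untreated MUT replicate 1 or 2, and without untreated WT replicate 2 (adjusted p 0.054 to 0.185), with the authors' factors (0.0556) and with only the compared groups fitted (0.146). Without untreated MUT replicate 2, the lowest in RUNX2, the log2 difference was -0.20, and without untreated MUT replicate 3, the lowest in DNMT3A, RUNX2 was also lower in MUT than in WT (log2 -0.34, edgeR adjusted p = 0.0164 against 0.162 with all libraries). The part of this scatter in the RUNX2 results was not tested. After Ara-C, RUNX2 was at 49.8 CPM in both EV (± 4.93, SD, n = 3) and MUT (± 1.95), with a log2 difference of 0.00 (95% interval -0.22 to 0.22). Genes annotated on the opposite strand that overlap RUNX2 (AL096865.1 inside it and SUPT3H across its start) held at most 15 and 5 counts, against 471 to 1243 for RUNX2.

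DLX5, which acts upstream of SP7, held 0 to 3 counts in each library and gave no fold at that level.

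**Figure D2:**
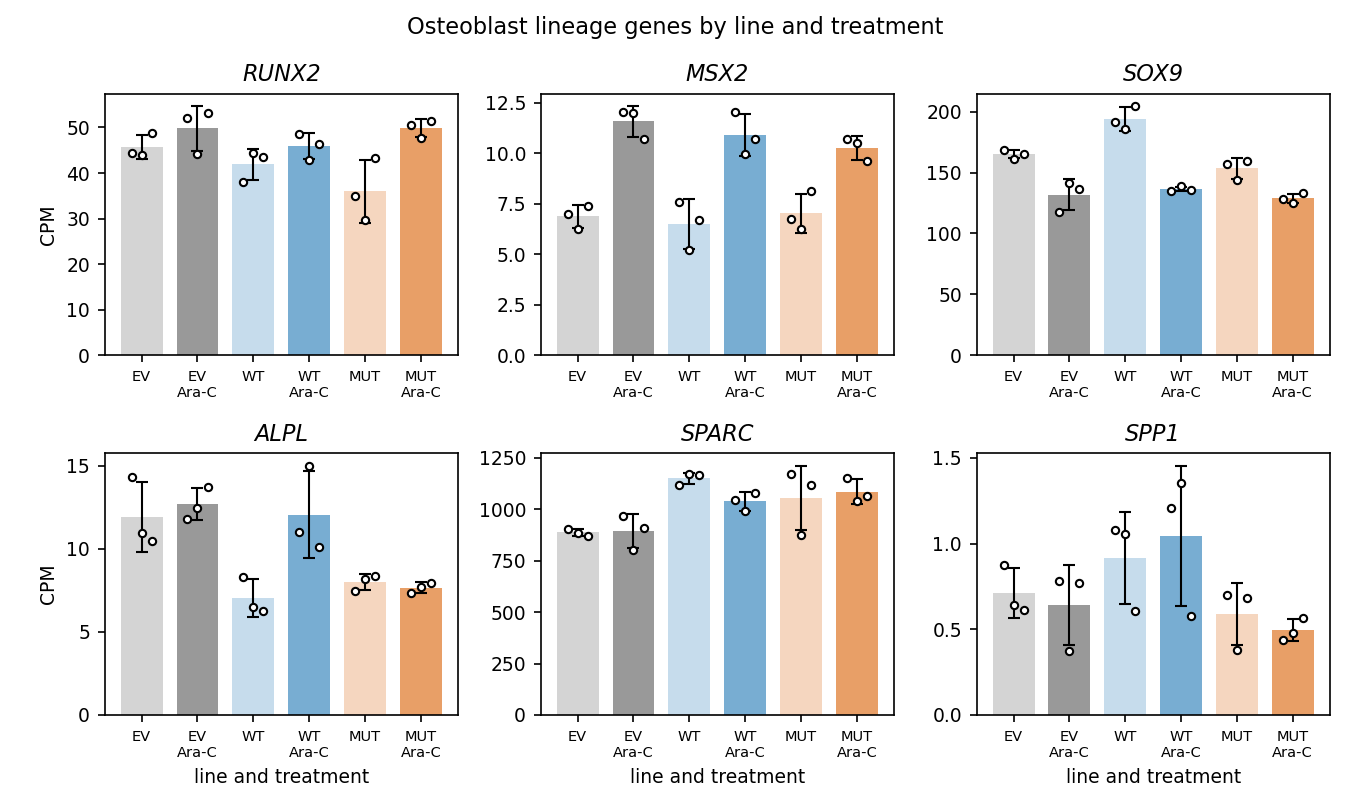
CPM (linear axes from 0) of the 6 tested genes by line and treatment, with points for the 3 libraries of a group, bars for the mean and error bars for the SD. MSX2 rises from 5.19 to 8.11 CPM untreated to 9.59 to 12.0 treated, SOX9 falls in each line, and ALPL is lower in untreated WT and in both MUT groups than in EV.

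Among the matrix genes, ALPL and SPARC differed between lines, and ALPL passed the test under Ara-C in WT. ALPL, tissue-nonspecific alkaline phosphatase (chr1:21509372-21578413), was at 14.3, 11.0 and 10.5 CPM in untreated EV and at 11.8, 12.5 and 13.7 CPM in treated EV. In WT it was at 8.34, 6.51 and 6.27 CPM untreated and at 11.0, 15.02 and 10.1 CPM treated. In MUT it was at 7.47, 8.18 and 8.39 CPM untreated and at 7.34, 7.71 and 7.97 CPM treated. EV was high in both conditions, MUT was low in both, and WT was low untreated and overlapped EV after Ara-C. Among untreated cells, ALPL was lower than in EV in WT (1.69-fold, log2 difference -0.76, SE 0.16, edgeR adjusted p = 0.00286). In MUT it was 1.49-fold lower than in EV (log2 -0.57, SE 0.16, edgeR adjusted p = 0.0137). The MUT call was lost without untreated EV replicate 1 (log2 -0.42, adjusted p = 0.0949) and with only the compared groups fitted (adjusted p = 0.0644). The untreated comparisons with EV share the EV libraries.

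ALPL rose 1.71-fold under Ara-C in WT (log2 0.77, SE 0.15, edgeR adjusted p = 0.000382), in all 25 settings. The log2 difference was 0.09 in EV (edgeR adjusted p = 0.654) and -0.06 in MUT (edgeR adjusted p = 0.762). After Ara-C, ALPL was lower in MUT than in EV (log2 -0.73, SE 0.15, edgeR adjusted p = 0.00336) and lower in MUT than in WT (log2 -0.65, SE 0.15, edgeR adjusted p = 0.00505). The Ara-C effects on ALPL in MUT and WT differed by a log2 of -0.83 (95% interval -1.29 to -0.37 before adjustment), which missed the threshold (edgeR adjusted p = 0.073). The same difference passed it in DESeq2 (adjusted p = 0.0108), with genes of at least 50 counts on average (0.0468), and without untreated MUT replicate 1 (0.0437) or 2 (0.0476). The effects in WT and EV differed by a log2 of 0.68 (95% interval 0.23 to 1.13 before adjustment, edgeR adjusted p = 0.265), called in 0 of 25 settings, so the ALPL effect was not shown to be particular to WT.

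SPARC, an abundant collagen-binding matrix protein (chr5:151661096-151687166), was at 906, 887 and 870.4 CPM in untreated EV. It was at 1119.5, 1169.8 and 1165 CPM in untreated WT and at 1171, 877 and 1119.9 CPM in untreated MUT. After Ara-C it was at 967, 805 and 908 CPM in EV, at 1045, 991 and 1082 CPM in WT and at 1155, 1039 and 1067 CPM in MUT. WT and EV did not overlap in either condition, and untreated MUT replicate 2 lay inside the EV range. SPARC was 1.30-fold higher in WT than in EV among untreated cells (log2 0.38, SE 0.09, edgeR adjusted p = 0.00797). In MUT the log2 difference from EV was 0.25 untreated (edgeR adjusted p = 0.0522) and 0.28 after Ara-C (edgeR adjusted p = 0.0391). The untreated difference passed the threshold in 8 of 25 settings, among them DESeq2 (adjusted p = 0.0106) and the fit without untreated MUT replicate 2 (log2 0.40, adjusted p = 0.000692). It also passed without treated EV replicate 1 or 2 or untreated WT replicate 2 (adjusted p 0.0416 to 0.0443). The treated call held in 12 of 25 settings and in 6 of the 18 that leave out a library. It was lost without each untreated EV, untreated WT or treated MUT library, without treated EV replicate 2 or 3 and without treated WT replicate 1 (adjusted p 0.0507 to 0.158), so it stands at the edge of the threshold. Ara-C changed SPARC in no line, with 95% intervals of the log2 difference from -0.18 to 0.19 in EV, -0.33 to 0.04 in WT and -0.14 to 0.23 in MUT. Treated and untreated WT did not overlap in SPARC, and with only those groups fitted the log2 difference of -0.14 passed the threshold (edgeR adjusted p = 0.002025). Treated WT against treated EV gave a SPARC log2 difference of 0.22 (edgeR adjusted p = 0.104), or 0.21 without untreated MUT replicate 2 (adjusted p = 0.0319).

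SPP1, osteopontin (chr4:87975650-87983427), was at 0.876, 0.643 and 0.615 CPM in untreated EV and at 0.782, 0.375 and 0.770 CPM in treated EV. In WT it was at 1.08, 1.06 and 0.605 CPM untreated and at 1.21, 1.35 and 0.580 CPM treated. In MUT it was at 0.702, 0.377 and 0.685 CPM untreated and at 0.439, 0.479 and 0.567 CPM treated. Groups overlapped in every comparison but treated MUT against treated WT, where the highest MUT library lay just below the lowest WT one. There the log2 difference in SPP1 was -1.06 (95% interval -1.92 to -0.21 before adjustment, edgeR adjusted p = 0.0742), and without treated WT replicate 3 it was -1.36 (edgeR adjusted p = 0.0359). At 6 to 26 counts a library, the 95% intervals of the SPP1 log2 difference under Ara-C were wide, from -1.004 to 0.76 in EV, -0.63 to 1.002 in WT and -1.17 to 0.65 in MUT, and each held the size of the MSX2 rise in the same line.

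BGLAP, osteocalcin (chr1:156241962-156243322), held 3, 4.39 and 5.98 estimated counts in untreated EV and 2, 7.40 and 7.77 in treated EV. It held 2.13, 4.16 and 5.30 estimated counts in untreated WT and 0, 0 and 1.45 in treated WT. In MUT it held 4.05, 1.18 and 3.13 untreated and 0, 1.03 and 2 treated, with values below 1e-10 written as 0. Each treated WT library thus lay below each untreated WT library, treated MUT overlapped treated WT, and the counts were too few for a fold. BGLAP shares its exons with the readthrough transcript PMF1-BGLAP, which held 11.2 to 55.7 estimated counts, so the split between both is uncertain. PMF1-BGLAP fell by 1.11 on the log2 scale under Ara-C in WT (edgeR adjusted p = 0.0144) and by 0.95 in EV (edgeR adjusted p = 0.0471), the latter in 9 of 24 settings (adjusted p of up to 0.385, without untreated EV replicate 2). The WT call was lost without treated WT replicate 3 (log2 -0.88, adjusted p = 0.0774) or untreated WT replicate 2 (adjusted p = 0.0558). In MUT the PMF1-BGLAP log2 difference was -0.26 (edgeR adjusted p = 0.543), called in 0 of 24 settings.

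**Figure D3:**
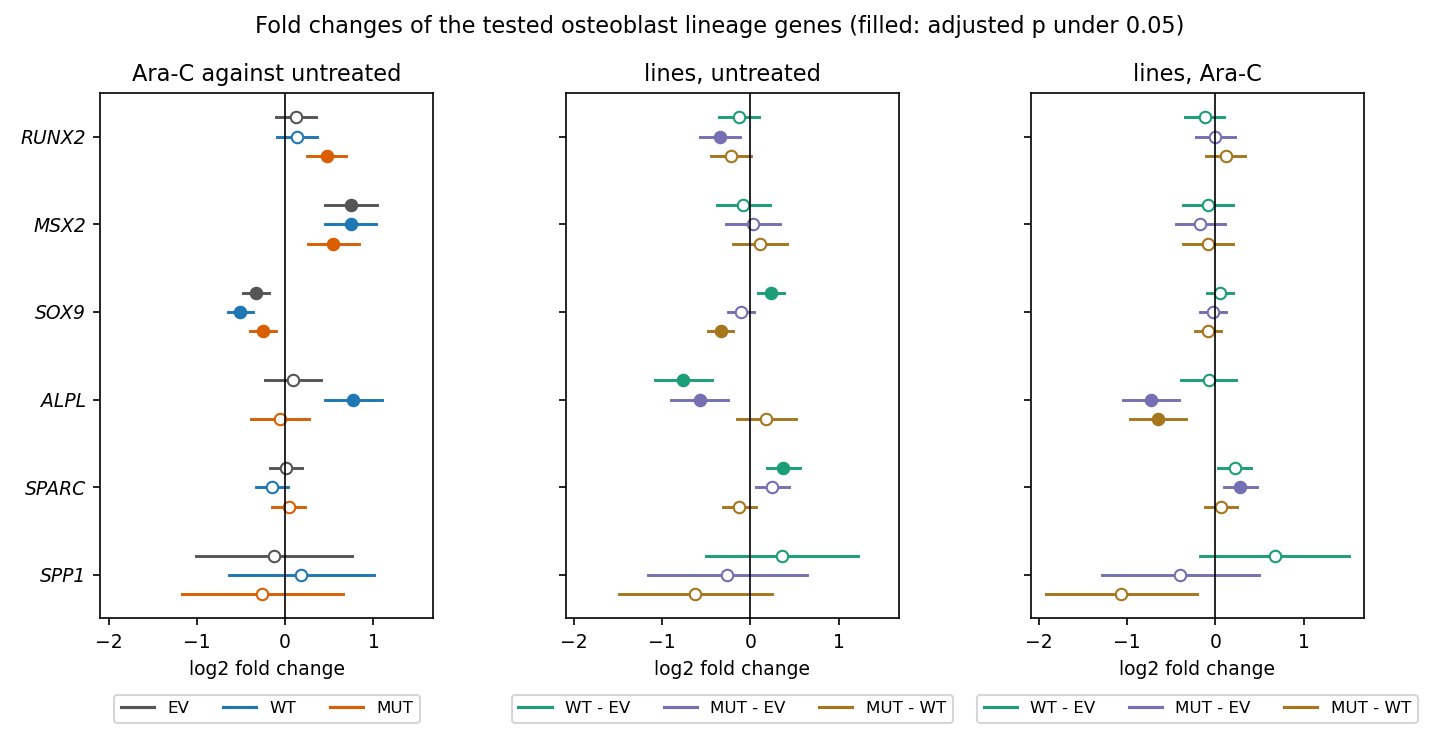
Log2 fold changes of the 6 tested genes with 95% intervals, for Ara-C against untreated in each line (left) and for the lines within a treatment (middle and right), with filled points where the edgeR adjusted p is under 0.05. MSX2 (0.55 to 0.75) and SOX9 (-0.51 to -0.25) are filled in all lines on the left. ALPL carries the most filled points between lines, followed by SPARC and SOX9 equally, and the SPP1 intervals are the widest.

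Ara-C called 2 of the 6 tested genes in EV, where 49.1% of all tested genes were called. It called 3 of 6 in WT (49% of all) and 3 of 6 in MUT (56.3% of all). These counts lie near the background shares, and 6 genes are too few to set the members apart from them. Rises made up 1, 2 and 2 of these calls, against 26.1%, 26.3% and 30.4% of all genes, and falls 1 in each line, against 22.9%, 22.7% and 25.9%. Treated and untreated libraries did not overlap for 2, 4 and 3 of the 6 genes, against 58.7%, 65.3% and 56.6% of all genes. In untreated cells, the comparison of WT with EV called 3 of 6 (11.7% of all), MUT with EV 2 (19.9%) and MUT with WT 1 (21.2%). In treated cells, MUT with EV called 2 of 6 (14%), MUT with WT 1 (19.8%) and WT with EV 0 (16.5%), where edgeR gave 1 gene, SPARC, at an unadjusted p under 0.05 and DESeq2 called 0. Libraries of the lines did not overlap for 3, 3 and 1 genes untreated (40.3%, 30.4% and 31.9% of all) and for 2, 3 and 1 treated (33.6%, 45.5% and 37.1%), in the same orders.

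No member was called for a difference between the Ara-C effects of MUT and EV (0.214% of all genes called), of MUT and WT (1%) or of WT and EV (0.285%). At an unadjusted p under 0.05 these edgeR contrasts held 1, 3 and 1 members, and DESeq2 called 0, 1 and 0. No member passed a minimum log2 change of 1 beside the adjusted p in edgeR. Of all genes, 12.1%, 12.6% and 16.3% did so under Ara-C in EV, WT and MUT, and 2.57%, 2.61% and 3.48% between untreated lines (WT with EV, MUT with EV, MUT with WT). Between treated lines (MUT with EV, MUT with WT, WT with EV) it was 1.56%, 3.59% and 3.28%, and 0.0549%, 0.165% and 0.0823% for the differences between effects. The median log2 difference of the 6 genes under Ara-C was 0.05 in EV, 0.16 in WT and -0.01 in MUT, beside 0.05, 0.03 and 0.05 over all tested genes.

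Of 13 tested osteogenic regulators, 2, 4 and 5 rose under Ara-C in EV, WT and MUT, and 5, 5 and 4 fell. Over all tested genes, 26.1%, 26.3% and 30.4% rose and 22.9%, 22.7% and 25.9% fell, and 13 genes are too few to read a difference from these shares. CBFB, the partner that RUNX proteins need to bind DNA stably, was at 130 to 139 CPM in untreated EV and at 89.6 to 115 CPM after Ara-C. CBFB fell by 0.42 on the log2 scale in EV (edgeR adjusted p = 0.00027), by 0.32 in WT (edgeR adjusted p = 0.00282) and by 0.26 in MUT (edgeR adjusted p = 0.0116), the last lost without treated MUT replicate 1 (log2 -0.23, adjusted p = 0.0533). ATF4, a stress-response factor that osteoblasts use for late matrix genes, fell by 0.48, 0.28 and 0.52 (edgeR adjusted p = 0.000143, 0.0114 and 4.37e-05). FOSL1, an AP-1 subunit, was the largest fall of the list in each line (log2 -0.91, -0.70 and -0.88). TWIST1 was not analysed here.

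RUNX3, a relative of RUNX2, was at 1.64, 1.52 and 2.95 CPM in untreated EV, at 0.490, 0.794 and 0.495 CPM in untreated WT and at 2.31, 3.08 and 1.71 CPM in untreated MUT. Untreated WT was thus low, without overlap with EV or MUT. RUNX3 was lower in untreated WT than in EV (log2 -1.77, edgeR adjusted p = 0.000867), while RUNX2 had a log2 difference of -0.13 in the same comparison (edgeR adjusted p = 0.519). RUNX3 was higher in untreated MUT than in WT (log2 1.98, edgeR adjusted p = 0.00018). Under Ara-C, RUNX3 rose in each line (log2 0.78, 0.88 and 1.16, edgeR adjusted p = 0.0194, 0.0341 and 0.000689). The EV call was lost without untreated EV replicate 1 or 2 (log2 0.65 and 0.61), and the WT call without treated WT replicate 1 (0.67) or untreated WT replicate 1 or 3 (0.76 and 0.77).

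Of 19 tested genes of bone collagen matrix, 11, 9 and 11 rose under Ara-C in EV, WT and MUT, and 2, 2 and 1 fell, beside 26.1%, 26.3% and 30.4% of all tested genes rising and 22.9%, 22.7% and 25.9% falling. Their median log2 difference was 0.45, 0.18 and 0.56. Between untreated lines, 6 were higher and 5 lower in WT than in EV, 1 higher and 4 lower in MUT than in EV, and 4 higher and 7 lower in MUT than in WT. Of all tested genes, 11.7%, 19.9% and 21.2% were called in these comparisons in either direction. COL1A1, the main chain of bone collagen, was at 168, 178 and 184 CPM in untreated EV, at 61.0, 68.5 and 60.8 CPM in untreated WT and at 184, 173 and 139 CPM in untreated MUT. WT was low without overlap: COL1A1 was lower in WT than in EV (log2 -1.48, edgeR adjusted p = 9.59e-09) and higher in MUT than in WT (log2 1.38, edgeR adjusted p = 2.05e-08).

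COL1A2, the second chain of the same collagen, ran the other way at a low level. It was at 0.292, 0.467 and 0.615 CPM in untreated EV, at 2.26, 1.38 and 2.09 CPM in untreated WT and at 0.351, 0.943 and 0.343 CPM in untreated MUT. WT was high without overlap (log2 2.05 against EV, edgeR adjusted p = 0.000384). Under Ara-C, COL1A2 reached 7.83 to 8.11 CPM in WT and 1.75 to 2.39 CPM in EV, and it rose in each line (log2 2.20 in EV, 2.06 in WT and 1.88 in MUT, edgeR adjusted p = 2.2e-05, 2.17e-06 and 6.41e-05).

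COL3A1, a fibrillar collagen of early matrix, was at 5.32 to 7.26 CPM in untreated EV, 22.1 to 27.3 CPM in untreated WT and 7.99 to 8.93 CPM in untreated MUT. COL3A1 was higher in WT than in EV (log2 1.88, edgeR adjusted p = 2.87e-08). Under Ara-C it rose in EV (log2 0.93, edgeR adjusted p = 2.97e-05) and MUT (log2 1.13, edgeR adjusted p = 1.11e-06), with a log2 difference of -0.13 in WT (edgeR adjusted p = 0.416). COL11A1, which seeds collagen fibrils, rose in each line (log2 1.79, 1.14 and 2.07), and THBS1, a matrix-bound regulator of TGF-beta, fell in each (log2 -1.79, -1.69 and -1.53).

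**Figure D4:**
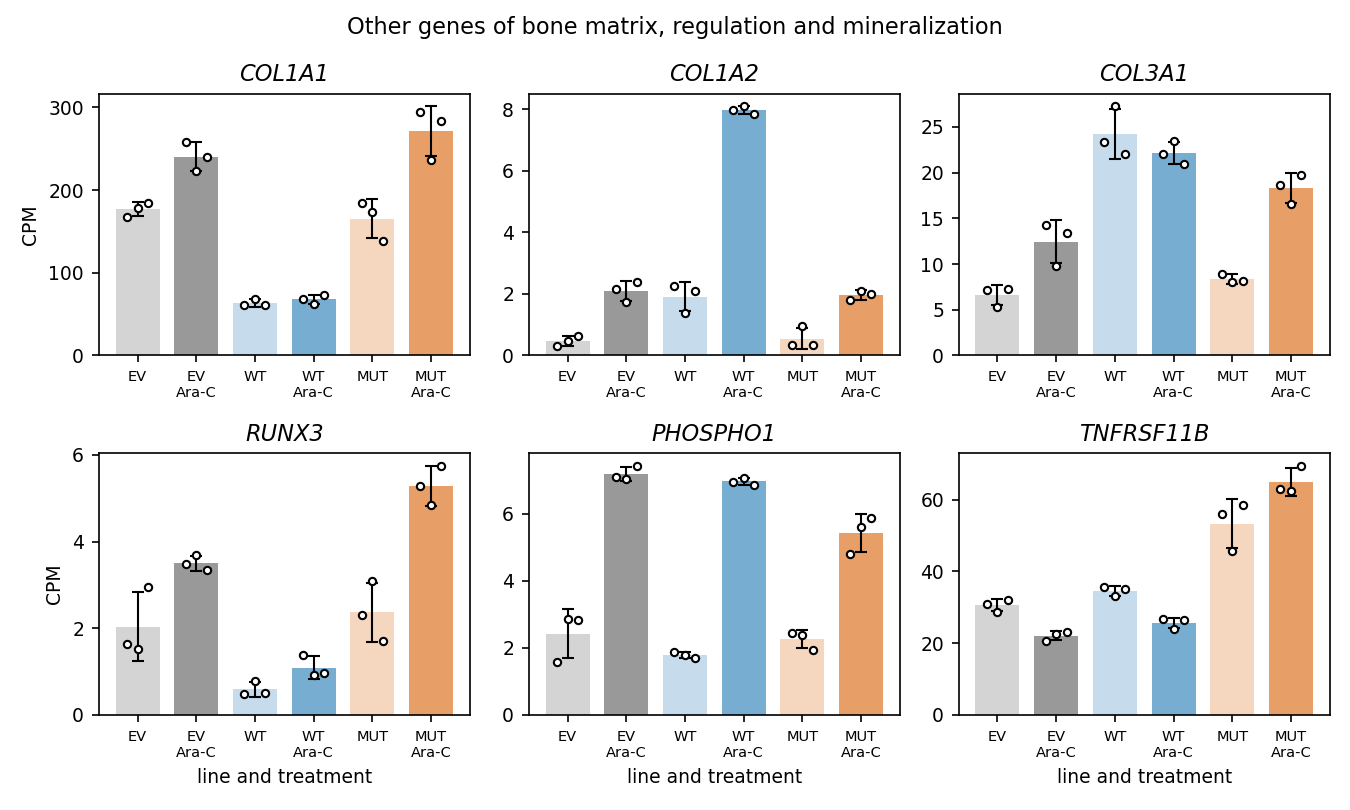
CPM (linear axes from 0) of 6 other bone genes by line and treatment, with points for libraries, bars for the mean and error bars for the SD. COL1A1 and RUNX3 are lowest in WT, COL1A2 and COL3A1 are highest in WT, PHOSPHO1 rises under Ara-C in each line, and TNFRSF11B is highest in MUT.

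Of 16 tested genes of mineralization, 4, 5 and 7 rose under Ara-C in EV, WT and MUT, and 4, 5 and 3 fell, beside 26.1%, 26.3% and 30.4% of all tested genes rising and 22.9%, 22.7% and 25.9% falling. PHOSPHO1, which works beside ALPL to release phosphate in matrix vesicles, was at 1.58, 2.86 and 2.83 CPM in untreated EV and at 7.09, 7.05 and 7.44 CPM after Ara-C. PHOSPHO1 rose in each line (log2 1.57, 1.96 and 1.26, edgeR adjusted p = 9.07e-07, 7.29e-08 and 1.02e-05), while ALPL was called in WT. ANXA2, an annexin found in matrix vesicles, was the largest fall in each line (log2 -0.83, -0.68 and -1.05). TNFRSF11B, osteoprotegerin, the decoy receptor that restrains osteoclasts, was at 28.8 to 32.1 CPM in untreated EV, 33.0 to 35.6 CPM in untreated WT and 45.6 to 58.5 CPM in untreated MUT. TNFRSF11B was higher in MUT than in EV (log2 0.80, edgeR adjusted p = 5.52e-06), without overlap. Under Ara-C it fell in EV (log2 -0.47) and WT (log2 -0.43) and rose in MUT (log2 0.28, edgeR adjusted p = 0.00777). The MUT rise was lost without untreated MUT replicate 2 (log2 0.14) or treated MUT replicate 3 (0.23), and with the authors' factors (0.20), and also with only the compared groups fitted.

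Markers of neighbouring fates were counted beside the lineage genes, and their counts under Ara-C stand beside rises of 26.1%, 26.3% and 30.4% and falls of 22.9%, 22.7% and 25.9% of all tested genes in EV, WT and MUT. Of 6 tested osteocyte genes, 3 rose under Ara-C in each line and 1 fell in MUT. CAPG, an actin-capping protein, led the rises (log2 1.20, 1.17 and 0.98). Of 9 tested chondrocyte genes, 6, 4 and 8 rose in EV, WT and MUT, and 1 fell, in WT, while SOX9 fell in each line. Their median log2 difference was 0.95, 0.68 and 1.08. Their summed level was 115 to 124 CPM in untreated EV and 151 to 169 CPM in treated EV. The sum was 60.6 to 64.5 CPM untreated and 70.6 to 79.1 CPM treated in WT, and 88.0 to 96.3 and 126 to 152 CPM in MUT. HAPLN1, a cartilage link protein, was the largest part in untreated cells (mean 86.8 CPM in EV, 33.4 in WT and 62.3 in MUT). It was also the gene that fell in WT (log2 -0.40, edgeR adjusted p = 0.00129). COL2A1, the defining cartilage collagen, held at most 9 counts in any library. COL9A2 rose in each line (log2 1.51, 1.32 and 1.49). Of 11 tested mesenchymal progenitor genes, 6, 6 and 7 rose and 2, 1 and 2 fell.

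The lists of other cell types held 2 to 5 tested genes each, too few to set against the 26.1%, 26.3% and 30.4% of all tested genes that rose. Under Ara-C in EV, WT and MUT, 4, 2 and 2 of 4 tested adipocyte genes rose, 2, 1 and 1 of 4 muscle genes, 1, 1 and 1 of 2 hematopoietic genes, 2, 2 and 2 of 5 epithelial genes, and 2, 4 and 3 of 4 endothelial genes. None of them fell in edgeR. The summed hematopoietic level was 1.69 to 3.14 CPM in untreated EV and 5.94 to 8.31 CPM in treated EV. CD34, the 1 hematopoietic gene called, had a mean of 1.29 CPM untreated and 5.60 CPM treated there. Of the 6 hematopoietic genes measured, 4 untreated and 3 treated held at most 3 counts in EV. The summed endothelial level was 4.56 to 5.90 CPM in untreated EV and 9.30 to 10.0 CPM in treated EV. The part of these other cell type genes in the lineage results was not tested.

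**Figure D5:**
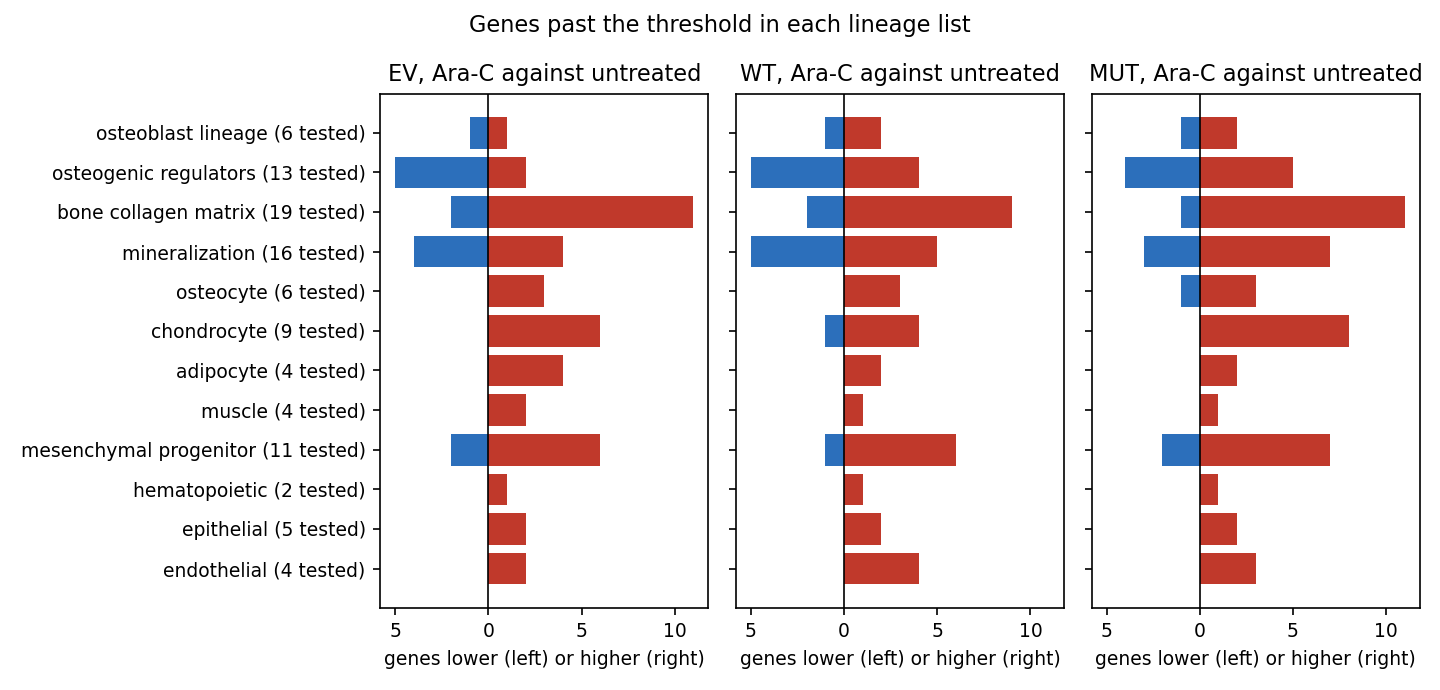
Number of tested genes in each lineage list that were higher (right of 0) or lower (left of 0) after Ara-C in EV, WT and MUT by edgeR adjusted p under 0.05. In bone collagen matrix 11, 9 and 11 of 19 genes rose, while the osteoblast lineage row holds 1, 2 and 2 rises and 1 fall in each line.

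Over the 18 libraries, the genes whose log2 CPM ran most like each of the 5 better-measured lineage genes were taken from 10865 genes. These libraries share the treatment and the line, so the values of Pearson's r are descriptions. RUNX2 ran closest to FOXF1 (0.87), ATP6AP2 (0.87) and PTN (0.87). MSX2 ran closest to FIG4 (0.94), OSGIN2 (0.94) and B3GNT2 (0.94), and SOX9 to FERMT2 (0.95), CDH2 (0.95) and PPP4R3A (0.94). ALPL ran closest to EXOC1 (0.84), LINC00668 (0.84) and WDR45 (0.83), and SPARC to PXDC1 (0.96), NQO2 (0.85) and MRPL33 (0.85). No gene searched followed ALPL or RUNX2 as closely as FIG4 followed MSX2, FERMT2 followed SOX9 or PXDC1 followed SPARC.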

How the data were processed

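Per gene symbol, the authors deposited estimated counts that were not normalized (70.4% of values whole) and a second table whose signal equalled 1 plus a library factor times the count; the deposited signal was used only to take the authors' factors. CASAVA, STAR 2.6.1d and hg38 are named in the submitters' processing notes. The counting tool and its use of strand are not given in the sources used here. Groups and replicate numbers came from the labels.

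Rounded estimated counts went into edgeR 4.0.16 (R 4.3.3): filterByExpr left 18226 genes, TMM scaled the libraries, and 1 quasi-likelihood model held all 18 libraries, with each group as a coefficient. F tests of 12 contrasts were adjusted by Benjamini and Hochberg over all tested genes, with a threshold of 0.05. The script was tested on simulated data. Totals of 15.4 to 21.9 M counts give counting error only; log2 CPM used a prior count of 2.

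The members and lists were chosen with earlier results of these data known, so no list's direction is independent support. Beside the members, DNMT3A and overlapping genes, each list gave the genes with its largest rise and fall past the threshold (mean log2 CPM of at least 1) in the Ara-C and untreated line comparisons, and COL1A1, COL1A2, CBFB, ATF4, TWIST1 and COL2A1 were named whatever their values; 1 further gene of this rule is not reported here. Likeness was searched among genes whose log2 CPM averaged 3 or more. Alternatives were RLE factors, the authors' factors, no filter, a mean of at least 50 counts, a replicate block, only the compared groups, a minimum log2 change of 1, each of 18 libraries left out, and DESeq2 1.42.0.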

Additional observations from a re-analysis of the deposited data

Results flagged for a closer look

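In the edgeR test of the difference between Ara-C effects, no osteoblast lineage gene passed the threshold (ALPL, MUT against WT, adjusted p = 0.073, passed in 4 of 25 settings, DESeq2 among them), while genes of the lists beside it did. COL3A1 had an Ara-C effect that was higher in MUT than in WT by 1.26 on the log2 scale (edgeR adjusted p = 0.00307) and lower in WT than in EV by -1.06 (0.0232; called in 16 of 25 settings). COL11A1 differed by 0.93 between MUT and WT (0.00307) and by -0.65 between WT and EV (0.0425; 9 of 25 settings). HAPLN1, a cartilage link protein, differed by 0.74 between MUT and WT (0.00764). TNFRSF11B differed by 0.71 between MUT and WT (0.00803) and by 0.75 between MUT and EV (0.017; 21 of 25 settings). COL1A1 differed by 0.62 (0.0446; 9 of 25 settings) and P4HA1, a collagen prolyl hydroxylase, by -0.46 (0.0331; 13 of 25 settings) between MUT and WT. The MUT against WT differences of COL3A1, COL11A1, HAPLN1 and TNFRSF11B passed in all 25 settings.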

How the results depend on the processing

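The count of lineage genes called under Ara-C was 2 in EV and 3 in MUT in all 25 settings that kept the threshold, and 3 in WT, or 4 with no filter (BGLAP added) and with only the compared groups fitted (SPARC added); it was 2, 3 and 3 without any single library. With a minimum log2 change of 1, the count was 0 in each of the 8 comparisons that had called a member. For untreated MUT against EV it was 1 with the authors' factors, 0 with only the compared groups fitted, and 3 (SPARC added) with RLE factors, a mean of at least 50 counts and DESeq2, against 2. For untreated WT against EV it was 2 with the authors' factors (SOX9 lost), against 3. For treated MUT against EV it was 1 with a mean of at least 50 counts, against 2. For treated WT against EV it was 1 with no filter (BGLAP, at counts too few for a fold), against 0. For the difference between the MUT and WT effects it was 1 (ALPL) with a mean of at least 50 counts and in DESeq2, against 0. Leaving out each library gave 0 to 3 members for untreated MUT against EV, 2 to 3 for WT against EV and 1 to 2 for MUT against WT; 1 to 2, 0 to 1 and 1 to 2 for the same after Ara-C in the order MUT against EV, WT against EV, MUT against WT; and 0 to 0, 0 to 1 and 0 to 0 for the differences between effects (MUT and EV, MUT and WT, WT and EV). No direction of a called result reversed.

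Same-numbered libraries deviated together with r from -0.261 to 0.428 (45 pairs, median -0.0174), so the numbers were not taken as pairs. With a replicate block, untreated MUT against EV had 3 members (SPARC added) in place of 2, and the other counts stayed at 2, 3 and 3 under Ara-C, 3 and 1 untreated, 2, 0 and 1 treated and 0 for each difference between effects.

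Over all genes, fitting only the compared groups moved untreated calls from 3632 to 935 (MUT against EV), from 2125 to 5101 (WT against EV) and from 3872 to 1171 (MUT against WT), and treated MUT against WT from 3616 to 6113. Differences between effects went from 39 (1 with only the compared groups, 554 in DESeq2, 8 to 666 without single libraries), 183 (51, 803, 38 to 810) and 52 (278 with only the compared groups, 12 to 148). Leaving out single libraries gave 2253 to 4386, 1385 to 2973 and 2784 to 4541 untreated, and 1539 to 3695 (MUT against EV), 1776 to 4095 (WT against EV) and 2313 to 4859 (MUT against WT) treated. Depth limits SPP1, BGLAP and DLX5, which had too few counts for moderate changes to be detectable.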

Other observations

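Among mesenchymal progenitor genes, NES, an intermediate filament of progenitor cells, was at 23.5 to 26.1 CPM in untreated EV, 3.79 to 4.13 CPM in untreated WT and 24.3 to 34.2 CPM in untreated MUT. NES was lower in untreated WT than in EV (log2 -2.64, edgeR adjusted p = 7.33e-10) and higher in MUT than in WT (log2 2.86). Under Ara-C, NES rose in EV (log2 1.82) and WT (log2 1.84), and its mean went from 29.0 to 83.9 CPM in MUT. ENG, a TGF-beta co-receptor, was lower in untreated MUT than in EV (log2 -1.13, edgeR adjusted p = 2.22e-06) and than in WT (log2 -0.53). Under Ara-C, NGFR rose in EV (log2 2.38) and WT (log2 0.94), and PDGFRA rose in EV, WT and MUT (log2 1.30, 1.28 and 1.80). LEPR fell in EV (log2 -0.65) and WT (log2 -0.83), and CD44 fell in EV (log2 -0.48) and MUT (log2 -0.67). In MUT under Ara-C, mean NGFR went from 2.17 to 6.77 CPM and mean LEPR from 11.25 to 7.35 CPM. CD34 rose in EV, WT and MUT (log2 2.11, 1.46 and 2.54), as did LPL, lipoprotein lipase (log2 1.59, 1.69 and 2.23). SOX5, a partner of SOX9 in cartilage, rose in EV (log2 1.215) and MUT (log2 1.52), CLDN5 in WT (log2 1.09), TNNT1 in EV (log2 0.40) and CLDN4 in EV (log2 0.77). VDR, the vitamin D receptor, was lower in untreated MUT than in EV (log2 -0.54). ANXA6 was lower in untreated WT than in EV (log2 -0.38) and higher in MUT than in WT (log2 0.69). These calls held in all 25 settings that kept the threshold.

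Among untreated cells, HAPLN1 was lower in WT than in EV (log2 -1.38, edgeR adjusted p = 3.82e-09). It was also lower in MUT than in EV (log2 -0.48, edgeR adjusted p = 0.000752) and higher in MUT than in WT (log2 0.90). CAPG was lower in WT than in EV (log2 -0.67) and higher in MUT than in WT (log2 0.60). CBFB was lower in MUT than in EV (log2 -0.37, edgeR adjusted p = 0.00344). The calls that follow, on genes named by the rule, were less stable. In untreated cells, FN1 was lower in MUT than in EV (log2 -0.50, 22 of 25 settings, lost without untreated EV replicate 2 or 3), and DSTN (log2 0.29, 20 settings) and CLDN4 (log2 0.41, 14 settings) were higher, both lost without any single untreated EV library. TNNT1 was higher than in EV in MUT (log2 0.48, 24 settings) and in WT (log2 0.32, 13 settings), the latter lost without any single untreated EV or WT library. NGFR was higher in WT than in EV (log2 0.80, 20 settings, lost without untreated EV replicate 2 or 3 or untreated WT replicate 1 or 3). Between MUT and WT, COL11A2 was lower (log2 -1.23, 22 settings, lost without untreated MUT replicate 2 or WT replicate 1), EPCAM higher (log2 0.61, 20 settings, lost without untreated MUT replicate 1 or 3 or WT replicate 1 or 2) and SMAD1 lower (log2 -0.34, 4 settings). Under Ara-C, DSTN fell in MUT (log2 -0.29, 24 settings), and CLDN4 rose in WT (log2 0.47, 24 settings, lost without treated WT replicate 3) and MUT (log2 0.38, 22 settings, lost without treated or untreated MUT replicate 1). SOX5 also rose under Ara-C in WT (log2 0.90, 22 settings, lost without treated WT replicate 3 or untreated WT replicate 2 or 3). Of the genes that overlap SOX9, SPARC and BGLAP on the opposite strand, SOX9-AS1 held at most 9 counts, CLMAT3 at most 5 and PAQR6 35 to 229.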
